A study of Danio rerio with 2 samples.

Results

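The genes described here encode the enzymes that make and use glutathione and those that remove peroxides and superoxide in zebrafish. They were taken from the deposited expression table by symbol: glutathione transferases (gst, mgst), glutathione peroxidases (gpx), peroxiredoxins (prdx), all symbols that begin with txn, superoxide dismutases (sod), catalase (cat), heme oxygenases (hmox), gclc, gclm, gss, gsr, nqo1, srxn1 and mt2. The rule matched 60 of 33733 rows, 1 row per Ensembl gene ID, and these carry 59 distinct symbols because sod3b has a pair of rows. RNA came from whole larvae of the AB/TL strain at 5 days post fertilization. One pool held 20 larvae homozygous for the mutation that the series title spells lri35 and the sample labels spell lir35. It was set against a pool of 20 wild-type siblings of the same clutch. Each genotype is thus 1 library, there are no replicates, and every difference below is between these 2 libraries, in which pool, library and genotype cannot be told apart. The labels do not name the gene that the mutation affects, so no targeted gene could be used to check them.

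Glutathione is a tripeptide whose thiol group reduces peroxides, through the glutathione peroxidases, and is joined to reactive foreign and endogenous compounds by the glutathione transferases. Peroxiredoxins and thioredoxins form a parallel system that reduces peroxides through cysteine thiols, and superoxide dismutases and catalase deal with superoxide and hydrogen peroxide directly. In zebrafish, as in mammals, many of these genes are switched on by the transcription factor Nrf2 when its partner Keap1 is modified by electrophiles. At this larval age the liver, gut, skin and red blood cells are among the tissues in which the systems work.

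Levels are given in FPKM, fragment numbers scaled for gene length and for the size of the library, a unit inferred from the layout of the table. Because FPKM is scaled to length, levels of different genes can be set side by side. A difference is log2((mutant FPKM + 1)/(wild-type FPKM + 1)), and a row was called when this passed 2-fold. Single folds are plain ratios of FPKM. The deposited values summed to 874244 FPKM in the mutant library and 875340 FPKM in the wild-type library. Absolute depth is unknown. If the lowest values stand for equal fragment numbers in both libraries, they put the mutant library at about 1.25 times the wild-type depth. Of the 350 rows used for this, 40.9% lay within 0.1 on the log2 scale of the most frequent ratio. Without counts no counting interval can be given, and the values of low genes are the least certain.

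The antioxidant genes stood at nearly the same level in both libraries. Their values summed to 4776 FPKM in the mutant library and 4922 FPKM in the wild-type library, 0.546% and 0.562% of all FPKM. All 60 rows reached 1 FPKM as the mean of the libraries. Of these, 31 were above and 29 below equality in the mutant library, and the median difference was 0.01, against -0.01 over the 19327 rows of the table that reached the same mean. Only 3 rows passed 2-fold, 1 higher and 2 lower in the mutant library, and all 3 had a mean of at most 2.12 FPKM. That is 5% of the rows, beside 6.17% of all 19327 rows. Taken by direction, 2.95% of all rows were higher and 3.22% were lower.

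**Figure D1:**
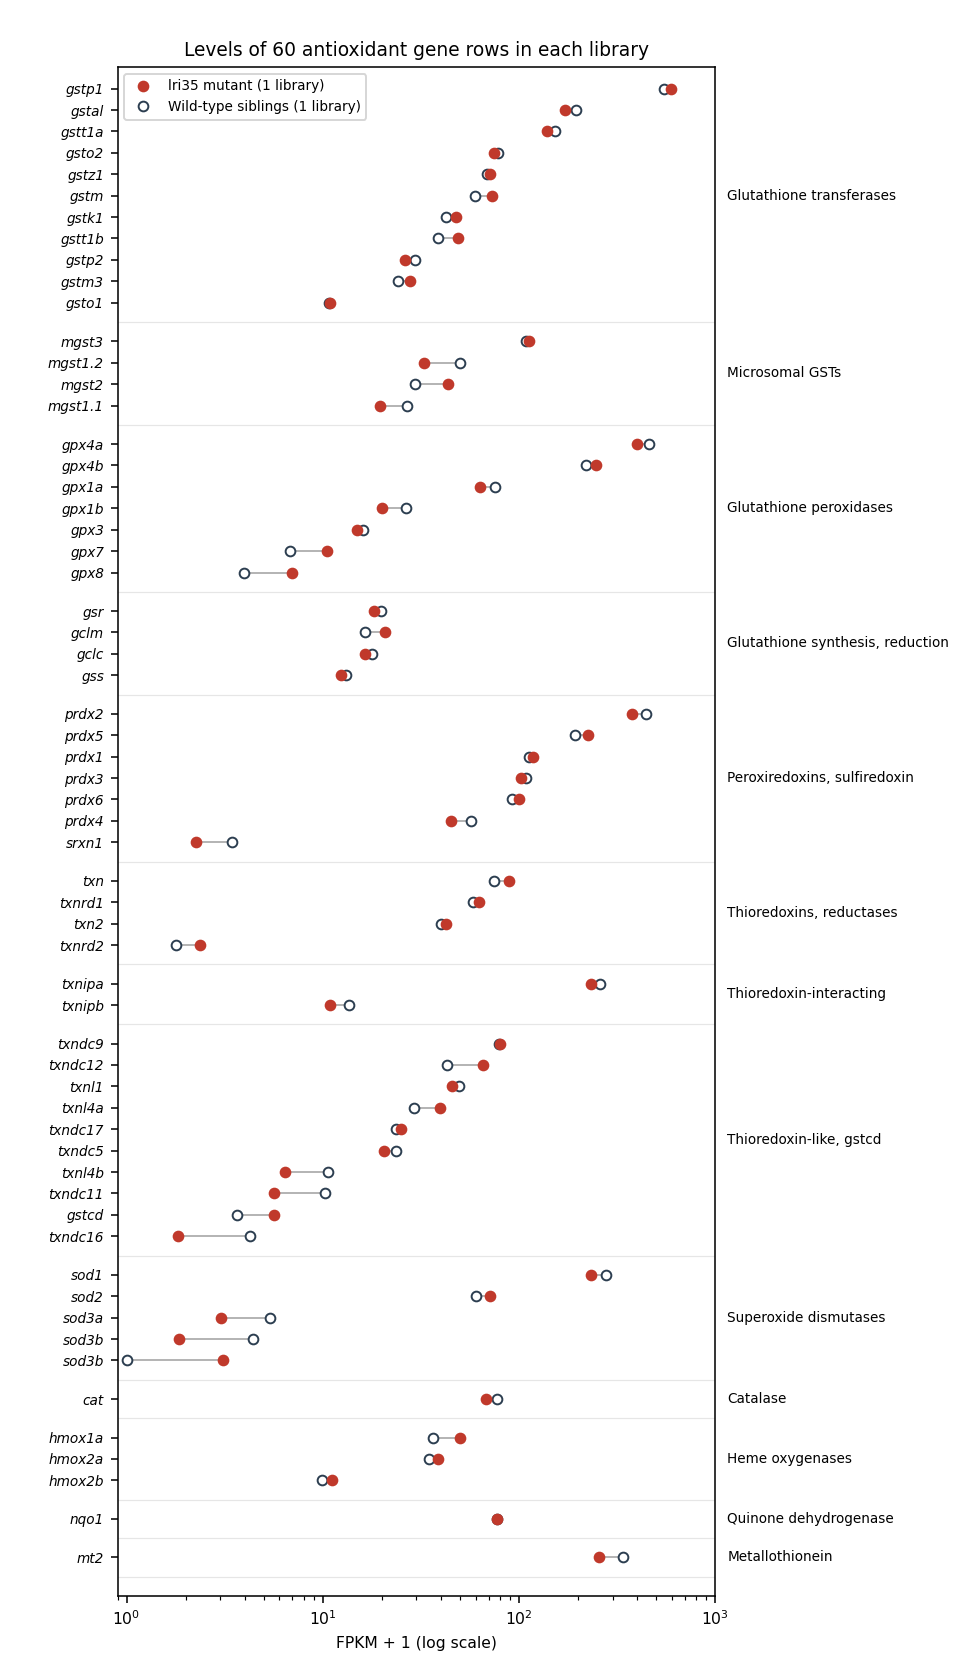
FPKM + 1 on a log axis for each of the 60 rows, grouped by enzyme class, with the lri35 mutant library as filled points, the wild-type library as open points and a line between them. The pairs lie close together for genes above about 10 FPKM, and the widest gaps are those of low genes such as txndc16 and sod3b.

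The spread of the differences depended on the level. Among the 47 antioxidant rows at a mean of 10 FPKM or more, 0 passed 2-fold, beside 2.12% of the 7303 rows of the table at such levels. The 1.5-fold mark was passed by 2 of the 47, or 4.26%, beside 8.02% of those rows. These were mgst1.2, lower in the mutant library, and txndc12, higher in it. Among the 13 antioxidant rows with a mean under 10 FPKM, 10 (76.9%) passed 1.5-fold, 4 higher and 6 lower in the mutant library. Of the 12024 rows of the table with a mean of 1 to 10 FPKM, 23.1% did (10.6% higher and 12.5% lower). At the 1.5-fold mark the antioxidant share was thus the larger under 10 FPKM and the smaller at 10 FPKM or more. The division at 10 FPKM was chosen after the values were seen. Those 13 rows together held 58.5 FPKM in the mutant library and 63.2 FPKM in the wild-type library, a small part of the antioxidant total.

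**Figure D2:**
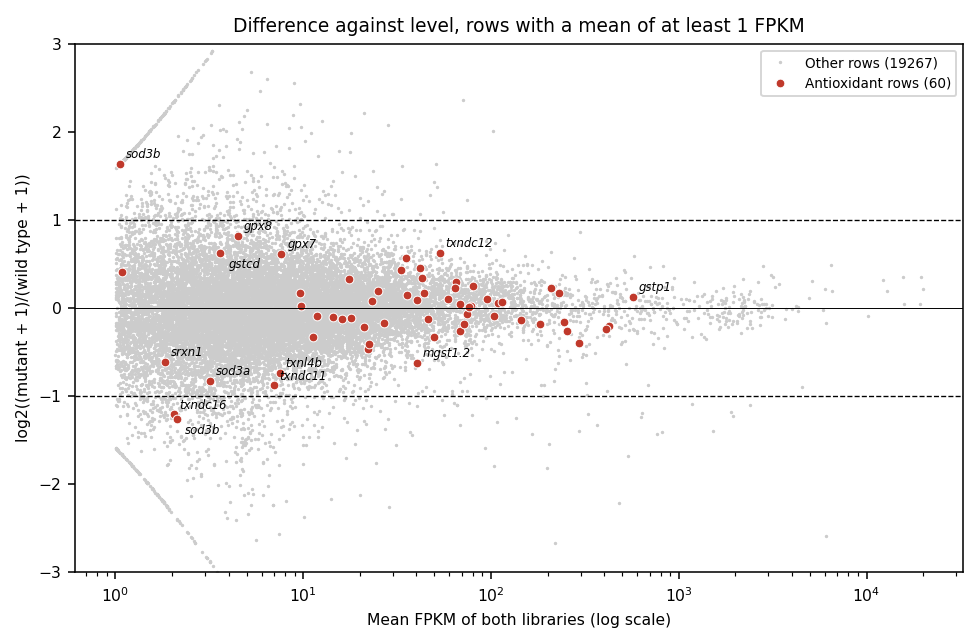
The difference between the lri35 mutant and wild-type libraries, log2((mutant + 1)/(wild type + 1)), against the mean FPKM of both on a log axis, for the 60 antioxidant rows (red) and 19267 other rows (grey), with dashed lines at 2-fold. Antioxidant rows above 10 FPKM lie within 2-fold, those outside it are of low level, and 59 other rows lie beyond the axis limits of 3.

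Glutathione itself is made in a pair of steps, by glutamate-cysteine ligase and then glutathione synthetase, and is returned to its reduced form by glutathione reductase. The catalytic ligase subunit gene gclc stood at 15.5 FPKM in the mutant library and 16.9 FPKM in the wild-type library, 1.09-fold lower. Its modifier subunit gene gclm stood at 19.6 FPKM in mutants and 15.4 FPKM in wild type, 1.27-fold higher. The subunits therefore lay in opposite order in the libraries, with gclc at 44.1% of the sum of both in mutants and 52.3% in wild type. The synthetase gene gss was at 11.4 FPKM in mutants and 12.2 FPKM in wild type. The reductase gene gsr was at 17.3 FPKM in mutants and 18.8 FPKM in wild type. All of these 4 genes lay within 1.5-fold, a mark passed by 8.02% of rows with a mean of 10 FPKM or more. All 4 had such a mean, and their sum was 63.8 FPKM in mutants and 63.3 FPKM in wild type.

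The soluble glutathione transferases, which join glutathione to electrophiles, showed the least spread of the classes with 7 or more rows. Of 11 rows, 0 passed 1.5-fold, beside 17.4% of all rows and 8.02% of rows with a mean of 10 FPKM or more. Of the 11, all but gsto1 lie at such levels. In the mutant library 7 were above and 4 below equality, with a median difference of 0.04 and a range of -0.18 to 0.34. The class summed to 1273 FPKM in mutants and 1233 FPKM in wild type. The pi class gene gstp1, a widely used readout of Nrf2 activity in zebrafish larvae, was the most abundant antioxidant gene of all, at 593 FPKM in mutants and 545 FPKM in wild type, 1.09-fold higher. The alpha class gene gstal followed at 170 FPKM in mutants and 194 FPKM in wild type. The theta class gene gstt1a was at 138 FPKM in mutants and 152 FPKM in wild type. Both of these were slightly lower in the mutant library, by 1.14-fold and 1.098-fold. The other theta class gene, gstt1b, had the highest difference of the class, at 48.0 FPKM in mutants and 37.8 FPKM in wild type. The omega class gene gsto2 was at 73.2 FPKM in mutants and 76.7 FPKM in wild type, and gstz1, which also isomerizes maleylacetoacetate in tyrosine breakdown, at 69.8 FPKM in mutants and 67.6 FPKM in wild type.

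Several of these transferases lie next to a relative in the Zv9 genome. Each such neighbour with a value above 0 lay within 1.5-fold of equality between the libraries. That mark was passed by 8.02% of rows with a mean of 10 FPKM or more and 23.1% of rows with a mean of 1 to 10 FPKM. On chromosome 4, gstp2 (29620555 to 29628421) lies 3980 bases before gstp1 (29632401 to 29639074). Levels of gstp2 were 25.3 FPKM in mutants and 28.6 FPKM in wild type, so gstp1 made up 95.9% of the pair in mutants and 95.0% in wild type. On chromosome 8, gstm (26148102 to 26150871) and gstm3 (26155114 to 26159957), of the mu class, flank the row zgc:173994. The gstm level was 71.6 FPKM in mutants and 58.3 FPKM in wild type, 1.23-fold higher. The gstm3 level was 26.7 FPKM in mutants and 23.2 FPKM in wild type, 1.15-fold higher, while zgc:173994 was at 9.32 FPKM in mutants and 9.69 FPKM in wild type. On chromosome 13, gsto1 (25604321 to 25612941) lies beside gsto2 (25620785 to 25626662) and stood at 9.83 FPKM in mutants and 9.69 FPKM in wild type. Also on chromosome 13, zgc:173961 lies 11811 bases before gstal and stood at 40.1 FPKM in mutants and 39.0 FPKM in wild type. The kappa class gene gstk1 was at 46.7 FPKM in mutants and 41.4 FPKM in wild type. The row GSTK1 (3 of 4) lies 921 bases before it on chromosome 16, with GSTK1 (4 of 4) beyond, and both were listed at 0 in both libraries. The sources used here do not say how the authors' counting divided reads shared by such close copies, so single values within a cluster are less certain than their sum.

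Microsomal glutathione transferases are membrane proteins of a separate family, and here the members went both ways. The neighbours mgst1.1 (11780218 to 11782891) and mgst1.2 (11783488 to 11790037) on chromosome 4, separated by 597 bases, were both lower in the mutant library. For mgst1.2 the values were 31.6 FPKM in mutants and 49.2 FPKM in wild type, 1.56-fold lower. For mgst1.1 they were 18.5 FPKM in mutants and 25.8 FPKM in wild type, 1.40-fold lower. Summed, the pair was at 50.03 FPKM in mutants and 75.0 FPKM in wild type, 1.498-fold lower. The gene mgst2 had the opposite difference, at 42.5 FPKM in mutants and 28.4 FPKM in wild type, 1.496-fold higher. The most abundant of the family, mgst3, stood at 111 FPKM in mutants and 107 FPKM in wild type. The sum over all 4 was 204 FPKM in mutants and 210 FPKM in wild type.

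Glutathione peroxidases reduce hydrogen peroxide and lipid peroxides, and their sum was 754 FPKM in mutants and 798 FPKM in wild type. The gpx4 pair, whose products reduce phospholipid hydroperoxides in membranes, dominated the class. The gpx4a level was 398 FPKM in mutants and 456 FPKM in wild type, 1.15-fold lower, and gpx4b was at 245 FPKM in mutants and 218 FPKM in wild type, 1.12-fold higher. The copies differed in opposite directions, so that gpx4a held 61.9% of their sum in mutants and 67.6% in wild type. Both copies of gpx1, the cytosolic enzyme for hydrogen peroxide, were lower: gpx1a was at 62.4 FPKM in mutants and 74.7 FPKM in wild type, and gpx1b at 19.1 FPKM in mutants and 25.6 FPKM in wild type. Together the gpx1 copies were 1.23-fold lower in the mutant library. The region listed for gpx1a also holds BRK1 and TEX264, and that of gpx4a holds polr2eb, so reads may be shared there. The secreted enzyme gene gpx3 was at 13.9 FPKM in mutants and 15.03 FPKM in wild type.

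The members with the highest differences of the class were gpx7 and gpx8, which in mammals lie in the endoplasmic reticulum and use peroxide in protein folding. The gpx8 level was 5.99 FPKM in mutants and 2.96 FPKM in wild type, 2.02-fold higher as a plain ratio and 0.82 on the log2 scale with the pseudocount, which is within 2-fold. The gpx7 level was 9.47 FPKM in mutants and 5.84 FPKM in wild type, 1.62-fold higher. Both are the lowest genes of the class by level.

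Peroxiredoxins reduce peroxides at a cysteine and are then recycled by thioredoxin. Of 6 rows, all with a mean of 10 FPKM or more, 3 were above and 3 below equality. All 6 lay within 1.5-fold, a mark passed by 8.02% of the rows of the table at such levels. The most abundant, prdx2, stood at 377 FPKM in mutants and 443 FPKM in wild type, 1.17-fold lower. In mammals prdx2 is one of the most abundant proteins of red blood cells. The 12 erythrocyte markers that reached a mean of 1 FPKM had a median difference of -0.66 in these libraries. Of these, 4 (33.3%) passed 2-fold lower, beside 3.22% of all rows. Below equality were 11 of them, while tspo was at 80.3 FPKM in mutants and 80.0 FPKM in wild type. The part of these markers in the prdx2 value was not tested. The ID of this row (ENSDARG00000025350) is named PRDX1 in a current gene name table, so its identity as prdx2 rests on the deposited symbol. The prdx5 gene, whose product lies largely in mitochondria, was higher, at 225 FPKM in mutants and 191 FPKM in wild type, also 1.17-fold.

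The cytosolic prdx1 was at 117 FPKM in mutants and 111 FPKM in wild type, and prdx6, which uses glutathione in place of thioredoxin, at 98.4 FPKM in mutants and 91.4 FPKM in wild type. The mitochondrial prdx3 was at 101 FPKM in mutants and 107 FPKM in wild type. These 3 genes differed by 1.08-fold or less. Lowest of the peroxiredoxins by difference was prdx4, the secretory pathway member, at 44.2 FPKM in mutants and 55.7 FPKM in wild type, 1.26-fold lower. Sulfiredoxin (srxn1) repairs over-oxidized peroxiredoxins and is an Nrf2 target. It was barely listed in either library, at 1.25 FPKM in mutants and 2.43 FPKM in wild type, and the authors' deposited table did not test it.

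The thioredoxins and their reductases were above equality in the mutant library, 4 of 4, with a median difference of 0.18, or 0.10 with a minimum mean of 5 FPKM, which leaves out txnrd2. Cytosolic thioredoxin, txn, was at 87.4 FPKM in mutants and 73.5 FPKM in wild type, 1.19-fold higher. The mitochondrial txn2 was at 41.6 FPKM in mutants and 38.9 FPKM in wild type. The reductase gene txnrd1, which passes electrons from NADPH to thioredoxin, was at 61.2 FPKM in mutants and 56.9 FPKM in wild type. The mitochondrial reductase txnrd2 was at 1.37 FPKM in mutants and 0.791 FPKM in wild type, 1.74-fold higher as a plain ratio, in a region it shares with a second row of the same name, TXNRD2 (1 of 2), which was at 5.09 FPKM in mutants and 2.12 FPKM in wild type. Thioredoxin-interacting proteins bind reduced thioredoxin and hold it inactive, and both of their genes were below equality. The abundant txnipa was at 230 FPKM in mutants and 257 FPKM in wild type, 1.11-fold lower, and txnipb at 9.83 FPKM in mutants and 12.6 FPKM in wild type, 1.28-fold lower. No difference in either group reached 1.5-fold on the pseudocount scale. That mark was passed by 8.02% of rows with a mean of 10 FPKM or more, where all of these but txnrd2 lie.

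**Figure D3:**
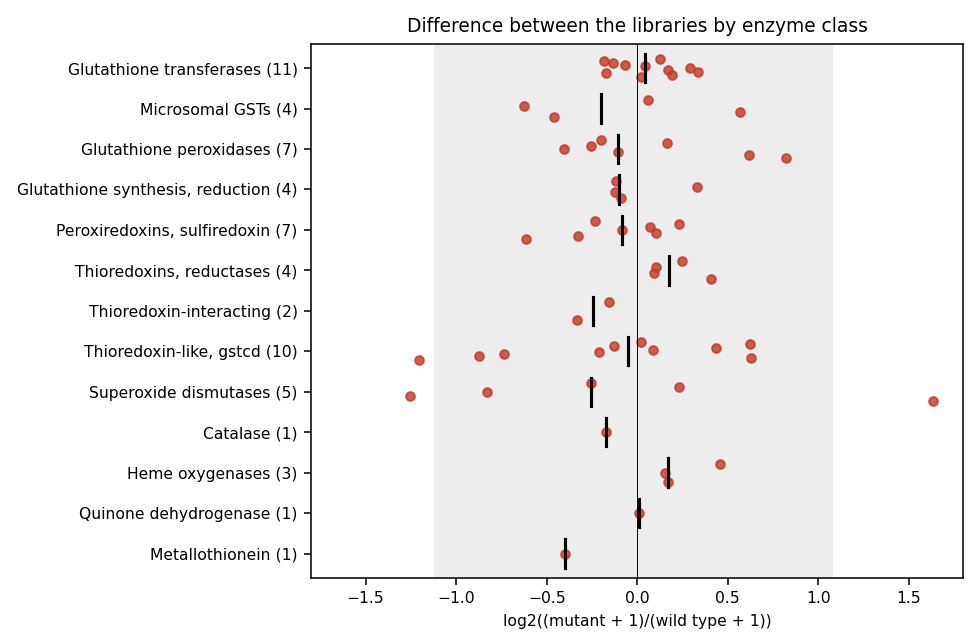
The difference between the lri35 mutant and wild-type libraries for each row by enzyme class, with the number of rows in parentheses, a black bar at the class median and grey shading over the central 95% of the 19327 rows (-1.12 to 1.07). Class medians lie between -0.40 for the single metallothionein row and 0.18 for the thioredoxins, and 3 rows lie outside the shading.

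Genes with thioredoxin-like domains, and gstcd, whose product carries only part of the transferase fold, were scattered to both sides of equality. Of 10 rows, 5 were above and 5 below equality and 5 passed 1.5-fold. Of those 5, txnl4b, txndc11, gstcd and txndc16 had a mean under 10 FPKM, and they are all the rows of the class at that level. Of all rows with a mean of 1 to 10 FPKM, 23.1% passed that mark. Several of them serve protein folding or splicing and not peroxide removal. The endoplasmic reticulum gene txndc12 was at 64.7 FPKM in mutants and 41.7 FPKM in wild type, 1.55-fold higher. By contrast txndc11 was at 4.61 FPKM in mutants and 9.29 FPKM in wild type, 2.02-fold lower as a plain ratio and -0.88 with the pseudocount. The txndc16 row, in the region from 14759339 to 14853366 on chromosome 17, was at 0.838 FPKM in mutants and 3.24 FPKM in wild type, and is 1 of the 2 rows called lower. It shares that region with gpr137c and was not tested in the authors' deposited table.

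The spliceosome genes txnl4a and txnl4b had opposite differences. The txnl4a level was 38.5 FPKM in mutants and 28.1 FPKM in wild type, 1.37-fold higher, and txnl4b was at 5.39 FPKM in mutants and 9.63 FPKM in wild type, 1.79-fold lower. The gstcd level was 4.61 FPKM in mutants and 2.63 FPKM in wild type, 1.75-fold higher. The more abundant members were close to equality: txndc9 was at 78.9 FPKM in mutants and 77.8 FPKM in wild type. Likewise txnl1 was at 44.4 FPKM in mutants and 48.5 FPKM in wild type. The txndc17 level was 24.02 FPKM in mutants and 22.6 FPKM in wild type, and that of txndc5 was 19.4 FPKM in mutants and 22.7 FPKM in wild type.

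Superoxide dismutases convert superoxide to hydrogen peroxide in 3 places, and the abundant members differed in opposite directions. Cytosolic sod1 was at 232 FPKM in mutants and 277 FPKM in wild type, 1.196-fold lower. Mitochondrial sod2 was at 69.9 FPKM in mutants and 59.4 FPKM in wild type, 1.18-fold higher. The secreted forms were low in both libraries. The sod3a row was at 2.03 FPKM in mutants and 4.38 FPKM in wild type, 2.16-fold lower as a plain ratio and -0.83 with the pseudocount.

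The pair of sod3b rows share a region on chromosome 1, from 40343978 to 40401983, which also holds ing2, aip and RNase MRP rows. The row ENSDARG00000094543 was at 0.843 FPKM in mutants and 3.40 FPKM in wild type and was called lower. The row ENSDARG00000079183 was at 2.11 FPKM in mutants and listed at 0 in wild type and was called higher. Summed over both rows, sod3b was at 2.95 FPKM in mutants and 3.40 FPKM in wild type, 1.15-fold lower, so of the 3 calls a pair cancels when the symbol is taken as 1 gene. Catalase, which breaks down hydrogen peroxide in peroxisomes, was at 67.1 FPKM in mutants and 75.9 FPKM in wild type, 1.13-fold lower.

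Heme oxygenases open the heme ring to give biliverdin, carbon monoxide and iron, and all 3 rows were above equality in the mutant library. The inducible form hmox1a, another Nrf2 target, had the highest difference, at 48.7 FPKM in mutants and 35.2 FPKM in wild type, 1.38-fold higher. Of the constitutive forms, hmox2a was at 37.8 FPKM in mutants and 33.8 FPKM in wild type and hmox2b at 10.2 FPKM in mutants and 8.94 FPKM in wild type. Summed, the 3 were at 96.7 FPKM in mutants and 78.0 FPKM in wild type, 1.24-fold higher. The quinone reductase nqo1, a standard Nrf2 target, was the member closest to equality, at 76.2 FPKM in mutants and 75.7 FPKM in wild type. The metallothionein mt2, which binds zinc and copper and is controlled by the metal sensor MTF1, was at 255 FPKM in mutants and 336 FPKM in wild type, 1.32-fold lower.

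The rows were also grouped by the place where the proteins work, a choice made after the values were seen. These groups do not cover every antioxidant row. No group had all of its members on the same side of equality. Of 6 mitochondrial members (prdx3, prdx5, sod2, txn2, txnrd2 and gstk1), 5 were above equality, with a median difference of 0.20 and a sum of 485 FPKM in mutants and 439 FPKM in wild type. Of 17 members listed as cytosolic, 9 were above and 8 below, with a median of 0.01. This list does not hold all soluble glutathione transferases: gstt1b and gsto1, both above equality, are not in it. Of 7 members of the endoplasmic reticulum and secretory pathway, 3 were above (gpx7, gpx8 and txndc12) and 4 below (prdx4, txndc5, txndc11 and txndc16), and 5 of the 7 passed 1.5-fold, beside 17.4% of all rows. Of these 5, txndc12 alone had a mean above 10 FPKM. Not in this group were the microsomal glutathione transferases and the heme oxygenases, of which mgst1.2 alone passed 1.5-fold. Of 4 secreted members (gpx3, sod3a and the pair of sod3b rows), 1 was above and 3 below, with a median of -0.47. Of the 4, 3 (75%) passed 1.5-fold, beside 17.4% of all rows. The sod3b pair (50%) passed 2-fold in opposite directions, beside 6.17% of all rows. Among the secreted members gpx3 alone had a mean above 10 FPKM. Of 7 enzymes that use selenocysteine (gpx1a, gpx1b, gpx3, gpx4a, gpx4b, txnrd1 and txnrd2), 3 were above and 4 below, all within 1.5-fold on the pseudocount scale. All but txnrd2 had a mean of 10 FPKM or more, and 8.02% of rows at such levels passed that mark. The symbol rule leaves out the row TXNRD2 (1 of 2) and the row si:ch73-199k24.2, named gpx2 in a current gene name table. Neither was in this group, and both passed 1.5-fold higher. The TXNRD2 row was at 5.09 FPKM in mutants and 2.12 FPKM in wild type, and the gpx2 row at 3.99 FPKM in mutants and 1.89 FPKM in wild type.

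Genes known as Nrf2 targets, also listed after the values were seen, included gstp1, gstp2, gclc, gclm, gsr, hmox1a, nqo1, prdx1, srxn1, txn and txnrd1. The list is not complete, and the counts and the sum below depend on this choice. Of these 11, 7 were above and 4 below equality, and the median difference was 0.07. None passed 2-fold, beside 6.17% of all rows and 2.12% of rows with a mean of 10 FPKM or more. All of these genes but srxn1 lie at such levels. Only srxn1, of low level, passed 1.5-fold, and it was lower. Past that mark in either direction were 17.4% of all rows and 8.02% of rows with a mean of 10 FPKM or more. Their sum was 1062 FPKM in mutants and 979 FPKM in wild type, 1.09-fold higher, and gstp1 was the largest part of it in both libraries.

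In the related pathways, too, few genes passed either mark, and the lists are small. Past 2-fold were 6.17% of all rows and 2.12% of rows with a mean of 10 FPKM or more. Past 1.5-fold these shares were 17.4% and 8.02%. Each list holds rows above and below that level. Of 14 measured regulators of the Nrf2 pathway, 0 passed 2-fold and 0 passed 1.5-fold, with a median difference of 0.02. Nrf2 itself, nfe2l2a, was at 46.8 FPKM in mutants and 41.9 FPKM in wild type. The autophagy receptor gene sqstm1 was at 64.7 FPKM in mutants and 77.0 FPKM in wild type. The 12 measured genes that supply NADPH had a median of 0.11, and 1 of them, the malic enzyme gene me1, passed 1.5-fold, at 5.32 FPKM in mutants and 11.54 FPKM in wild type. The 23 genes of cysteine and glutathione turnover had a median of -0.06, with 15 below and 8 above equality and 0 past 1.5-fold. Among these chac1, whose product degrades glutathione, was at 226 FPKM in mutants and 259 FPKM in wild type.

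The 26 genes of glutaredoxins, methionine sulfoxide reductases, selenoproteins and sestrins, with sephs1, had a median of 0.04. In that list msrb2, a mitochondrial reductase of oxidized methionine, was the 1 gene past 1.5-fold, at 34.0 FPKM in mutants and 21.7 FPKM in wild type. The most abundant, the selenium carrier sepp1a, was at 779 FPKM in mutants and 751 FPKM in wild type. The 19 heme and iron rows had a median of -0.01 with 0 past 1.5-fold, and the ferritin gene fth1a was at 882 FPKM in mutants and 918 FPKM in wild type. The list of superoxide sources, which also holds the peroxidase gene mpx, had 7 measured rows with a median of -0.03. The most abundant, the oxidase subunit gene cyba, was at 25.1 FPKM in mutants and 26.1 FPKM in wild type. In that list 2 of the 7 (28.6%) passed 1.5-fold, beside 17.4% of all rows and 23.1% of rows with a mean of 1 to 10 FPKM. The oxidase gene nox1 was at 1.89 FPKM in mutants and 0.818 FPKM in wild type, and mpx, the neutrophil peroxidase gene, at 0.630 FPKM in mutants and 1.74 FPKM in wild type. Across these 6 lists, 0 genes passed 2-fold with the pseudocount of 1 FPKM. With a pseudocount of 0.1 FPKM, me1, nox1 and mpx did, with no filter on the mean mafga did, listed at 0 in wild type, and with rows of a symbol summed nox1 did.

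**Figure D4:**
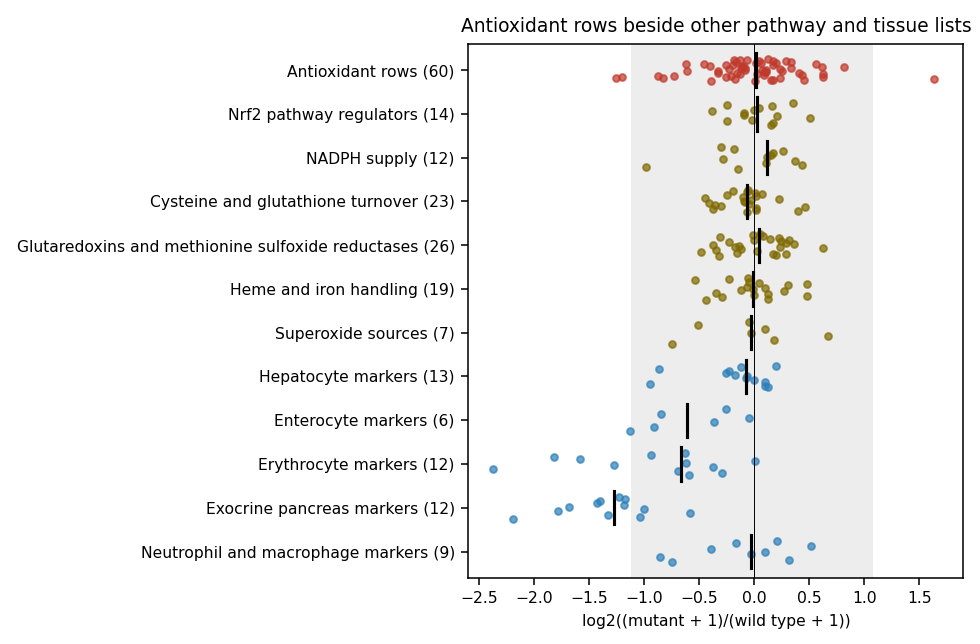
The difference between the lri35 mutant and wild-type libraries for the antioxidant rows (red), 6 related pathway lists (brown) and 5 tissue marker lists (blue), with the number of rows that reached a mean of 1 FPKM in parentheses, black bars at medians and grey shading over the central 95% of all such rows. The antioxidant and pathway medians lie between -0.06 and 0.11, while the enterocyte, erythrocyte and exocrine pancreas medians lie at -0.61, -0.66 and -1.28.

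Marker genes of some tissues did differ between the pools, and in RNA from whole larvae fewer cells of a type and less RNA per cell cannot be told apart. The exocrine pancreas markers, 12 of 12 measured, summed to 4143 FPKM in mutants and 10053 FPKM in wild type. Of the 12, 11 (91.7%) passed 2-fold lower, beside 3.22% of all rows. In either direction, 2.12% of rows with a mean of 10 FPKM or more passed 2-fold. The erythrocyte markers, 12 of 12 symbols found, summed to 985 FPKM in mutants and 1852 FPKM in wild type. Of the 12 rows that reached a mean of 1 FPKM, 11 were below equality, and tspo was above it by 0.005. In addition, 1 of a pair of hbae1 rows was listed at 0 in wild type. The enterocyte markers, 6 of 10 found, summed to 983 FPKM in mutants and 1332 FPKM in wild type, with a median difference of -0.61 and 6 of 6 below equality. The hepatocyte markers, 13 of 14 found, had a median difference of -0.08, with 4 above and 9 below equality. They summed to 10281 FPKM in mutants and 10082 FPKM in wild type. Most of that sum was apoa2, at 7038 FPKM in mutants and 6125 FPKM in wild type. All of the 13 but hpx had a mean of 10 FPKM or more. Of the 13, 2 (15.4%) passed 1.5-fold, both lower, beside 17.4% of all rows and 8.02% of rows at such levels. These were fabp10a, at 485 FPKM in mutants and 887 FPKM in wild type, and ttr, at 47.3 FPKM in mutants and 92.0 FPKM in wild type. The neutrophil and macrophage markers, 9 of 10 found, summed to 167 FPKM in mutants and 157 FPKM in wild type, with 1 lcp1 row listed at 0 in both. The most abundant, mmp9, was at 86.7 FPKM in mutants and 75.2 FPKM in wild type. Of the 9 rows that reached a mean of 1 FPKM, 4 were above and 5 below equality, with a median of -0.03. Past 1.5-fold were 2 (22.2%), spi1b and mpx, both lower and of low level, beside 17.4% of all rows. The part of these tissues in any antioxidant value was not tested.

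The symbol rule leaves out family members that the deposited table lists under other names. A current gene name table, or a symbol in capitals, put 13 further rows in the same families, a choice made after the values were seen. Of the 10 that reached a mean of 1 FPKM, 4 were above and 6 below equality, and the median difference was -0.08. None passed 2-fold on the pseudocount scale, beside 6.17% of all rows, and 2 (20%) passed 1.5-fold, both higher in the mutant library, beside 17.4% of all rows. The most abundant was zgc:56493, named as a thioredoxin gene there, at 336 FPKM in mutants and 307 FPKM in wild type, several times the level of the row called txn. Next were zgc:158387 (mgst3b), at 163 FPKM in mutants and 185 FPKM in wild type, and zgc:162356 (gstr), at 100.2 FPKM in mutants and 114.9 FPKM in wild type. The lowest difference was that of si:ch73-111m19.2 (gpx9), at 12.6 FPKM in mutants and 19.1 FPKM in wild type. It was 1.51-fold lower as a plain ratio and -0.56 with the pseudocount, which is within 1.5-fold. The highest, apart from the TXNRD2 row given above (2.40-fold as a plain ratio), was si:ch73-199k24.2 (gpx2), at 3.99 FPKM in mutants and 1.89 FPKM in wild type, 2.11-fold higher as a plain ratio. The row with the capital symbol TXNDC15 is named irf1b in the current table, and 3 GSTK1 rows were listed at 0 in both libraries. With these rows added, the sum was 5472 FPKM in mutants and 5630 FPKM in wild type.

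The test in the authors' deposited table covered 55 of the 60 antioxidant rows and called 0 of them, where it called 18 of 14574 rows in all, 0.124%. Before correction, a single row of the 55 had a p under 0.05 in the authors' deposited table, 1.82%, beside 2.94% of all tested rows. That row was mgst1.2, with p = 0.03895 in the authors' deposited table and a q of 0.993883. The next was txndc11, with p = 0.0574 in the authors' deposited table. Every one of the 55 had the same q there, and with 1 library per genotype these p-values compare the libraries.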

How the data were processed

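RNA was measured in 1 pool of 20 lri35 mutant larvae and 1 pool of 20 wild-type siblings. Standard Illumina libraries were made from total RNA, per the labels' protocols. CASAVA, Bowtie and the build Zv9 are listed, without versions or roles, per the submitters' processing notes. For the quantifying tool, annotation and multi-mapped reads, nothing is given in the sources used here. The values deposited by the authors were read as FPKM from a layout that matches Cuffdiff output. Each p-value and q-value is the authors' own.

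Each deposited row was kept separate, with a pseudocount of 1 FPKM, a minimum mean of 1 FPKM and a 2-fold call. With 1 library per genotype no test, SD or p-value was computed. Relative depth came from the mode of the ratio over 350 rows with a mean of at most 0.3 FPKM. Members and lists were chosen with earlier results of these data known. Named members are those past 2-fold or at 0 in 1 library and, by class, the 3 most abundant and the extremes. Other members were added to account for all 60. In the pathway lists fewer genes were printed than the rule allows. Of the 60 IDs, 52 were in the current gene name table, 13 under another name. Of the 60 rows, 10 share their region with another row. Coordinates are those of the table, on Zv9. Calculations used Python 3.11.15, numpy 2.4.6 and pandas 2.3.3, and were tested on simulated data with known shifts.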

Additional observations from a re-analysis of the deposited data

How the results depend on the processing

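No paired analysis was possible because each genotype has 1 library, so no replicate could be left out either. The count of antioxidant rows past 2-fold, 1 higher and 2 lower, became 0 and 0 with a pseudocount of 5 FPKM or a minimum mean of 5 FPKM. It became 1 and 3 with a pseudocount of 0.1 FPKM, 0 and 1 with rows of a symbol summed, and 5 and 7 with a 1.5-fold call. Over all rows the counts of 571 higher and 622 lower became 951 and 1088 with a pseudocount of 0.1 FPKM and 96 and 130 with one of 5 FPKM. They were 159 and 198 with a minimum mean of 5 FPKM and 1552 and 1813 with a 1.5-fold call. The superoxide dismutase median went to -0.012 with a minimum mean of 5 FPKM, which leaves sod1 and sod2. Other class medians and the median over all antioxidant rows moved by less than 0.1 under every alternative run. Rescaling multiplied the mutant library by at most 1.02 and left 31 rows above and 29 below equality. Without counts or replicates, folds of genes of a few FPKM carry an unknown error.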
